A study of Mus musculus with 12 samples.

Results

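The genes described here are 8 mouse genes of cellular iron handling, chosen by symbol: the ferritin chains Fth1 and Ftl1, the ferritin autophagy receptor Ncoa4, the iron exporter Slc40a1, the transferrin receptor Tfrc, the iron regulatory proteins Ireb2 and Aco1, and the iron sensor Fbxl5. All 8 were found among the 24421 gene symbols of the count table, and all 8 passed the filter on low counts. The study sequenced poly(A) RNA from KP cells, a mouse lung adenocarcinoma cell line, to ask how genes of ferroptosis, a cell death driven by iron and lipid peroxidation, respond to loss of the heme-binding repressor BACH1 or of the ubiquitin ligase receptor FEM1B. There were 4 groups with 3 libraries each, called biological replicates in the design text. sgBACH1_siFEM1B cells carried a CRISPR/Cas9 knockout of Bach1 and received FEM1B siRNA, and sgBACH1_siCTRL cells carried the same knockout and received control siRNA. sgCTRL_siFEM1B cells carried a control guide and received FEM1B siRNA, and sgCTRL_siCTRL cells carried a control guide and received control siRNA. siRNA exposure was 48 hours. Every group shares the genotype KrasLSL-G12D/+; Trp53flox/flox and growth in serum-supplemented DMEM. Only 1 knockout line and 1 control line are named, so that effects of the knockout and other differences between these lines cannot be told apart. No source used here says whether the knockout line is a clone or whether replicates came from separate cultures, and p-values measure only the spread between these libraries.

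Ferritin is a hollow shell that stores iron; its heavy chain oxidizes iron and its light chain helps the mineral core to form. Iron regulatory proteins bind hairpins called iron-responsive elements (IREs) in iron-poor cells, which blocks translation of transcripts with an IRE in the 5′ untranslated region (UTR) and stabilizes the transferrin receptor transcript, which has IREs in its 3′ UTR. FBXL5 is the iron-binding substrate receptor of an SCF ubiquitin ligase and marks iron regulatory proteins for degradation when iron is plentiful. Much of this control acts on translation or on protein stability, neither of which a count of transcripts measures.

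The IREs are shown because they sort the 8 genes into transcripts with a hairpin at the 5′ end, transcripts with hairpins at the 3′ end, and transcripts without a match. Spliced GENCODE M21 transcripts (GRCm38, the assembly of mm10) were searched for a bulged C, 5 upper stem pairs, the loop CAGTG followed by A, C or T, and at least 4 of 5 lower stem pairs, with G-T pairs allowed. Of 21877 protein-coding genes 24 held a match, or 0.11%. Among the 8 genes 4 held a match and 4 did not (Ncoa4, Ireb2, Aco1 and Fbxl5). Capitals mark the loop in each hairpin of 27 bases, written 5′ to 3′ on the transcript's strand.
Fth1 5′ UTR, chr19:9982733-9982759, plus strand: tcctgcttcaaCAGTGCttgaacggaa
Ftl1 5′ UTR, chr7:45459780-45459806, minus strand: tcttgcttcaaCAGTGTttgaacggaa
Slc40a1 5′ UTR, chr1:45925466-45925492, minus strand: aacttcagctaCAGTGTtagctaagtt
Tfrc 3′ UTR, chr16:32631220-32631246, plus strand: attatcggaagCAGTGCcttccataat
Tfrc 3′ UTR, chr16:32631599-32631625, plus strand: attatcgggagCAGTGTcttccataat
Tfrc 3′ UTR, chr16:32631664-32631690, plus strand: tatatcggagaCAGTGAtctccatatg
Tfrc 3′ UTR, chr16:32631711-32631737, plus strand: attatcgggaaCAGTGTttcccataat
The hairpins of the ferritin chains were identical at 25 of 27 bases. A match describes the letters in the transcript and is not a measure of binding.

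Libraries held 16539168 to 22196999 counts in total. Levels are given as CPM, counts scaled to a common library total, and 1 count corresponded to 0.0446 to 0.0604 CPM. Fem1b was at 46.2 to 54.5 CPM in knockout cells with FEM1B siRNA, against 136 to 141 CPM with control siRNA. In control cells it was at 43.0 to 58.0 CPM with FEM1B siRNA, against 157 to 167 CPM with control siRNA. With control siRNA Fem1b was lower in knockout than in control cells, at −0.22 ± 0.08 on the log2 scale (adjusted p = 0.0241, edgeR). That call was lost in 4 of 12 fits without 1 library. With FEM1B siRNA the difference between lines was −0.08 ± 0.09 (adjusted p = 0.484, edgeR). The Bach1 transcript was not called different by genotype, and a guide RNA lesion need not change transcript level, so it does not check the knockout. FEM1B siRNA raised Bach1 in knockout cells by 0.44 ± 0.08 on the log2 scale (adjusted p = 0.000133) and in control cells by 0.40 ± 0.08 (adjusted p = 0.000242, edgeR). Summed levels of 5 epithelial markers were 6658 to 7756 CPM over all libraries. The keratins made up most of this sum, and with control siRNA Krt18 averaged 2236 CPM in knockout cells and 2821 CPM in control cells, Cdh1 645 and 322 CPM, and Epcam 0.309 and 0.0314 CPM. By contrast, 5 lung lineage markers, among them Nkx2-1 and Sftpc, summed to at most 0.38 CPM, so that the lung label is not borne out by these markers. Summed fibroblast markers were 8.03 to 11.1 CPM in knockout cells, against 18.0 to 23.8 CPM in control cells. Most of this sum was Col1a1, while Pdgfra went the other way, at 0.568 CPM in knockout cells and 0.08 CPM in control cells with control siRNA. Summed leukocyte markers, mostly Cd68 and with Adgre1 and Cd3e at 0, were 8.51 to 11.1 CPM in knockout cells with FEM1B siRNA, against 5.14 to 6.05 CPM with control siRNA. In control cells they were 21 to 29.9 CPM with FEM1B siRNA, against 7.46 to 9.51 CPM with control siRNA. These sums do not show that fibroblasts or leukocytes were present, and the part of these markers in the results was not tested. Whole chromosomes also stood apart between the lines. With control siRNA, the median over genes of the log2 fold change of knockout over control cells was 0.44 on chromosome 19 (495 genes), 0.27 on chromosome 9 (744 genes) and 0.24 on chromosome 14 (438 genes), which carry Fth1, Ireb2 and Ncoa4.

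The ferritin chains were by far the most abundant transcripts of the 8. In control cells with control siRNA, level per kilobase of transcript was 3121 CPM per kb for Fth1 and 2318 for Ftl1. On the same scale Tfrc was at 55.4, Fbxl5 at 54.6, Aco1 at 23.6, Ireb2 at 18.0, Ncoa4 at 11.9 and Slc40a1 at 0.539 CPM per kb. The order of the first 2 was the same in each group, but the gap was not: in knockout cells with FEM1B siRNA Fth1 was at 3144 CPM per kb and Ftl1 at 665. Spans between group means were taken on log2 CPM with a prior count of 2, which narrows differences at low counts. Slc40a1 spanned 3.56-fold and Ftl1 3.5-fold, whereas the other 6 genes spanned at most 0.635 on the log2 scale.

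**Figure D1:**
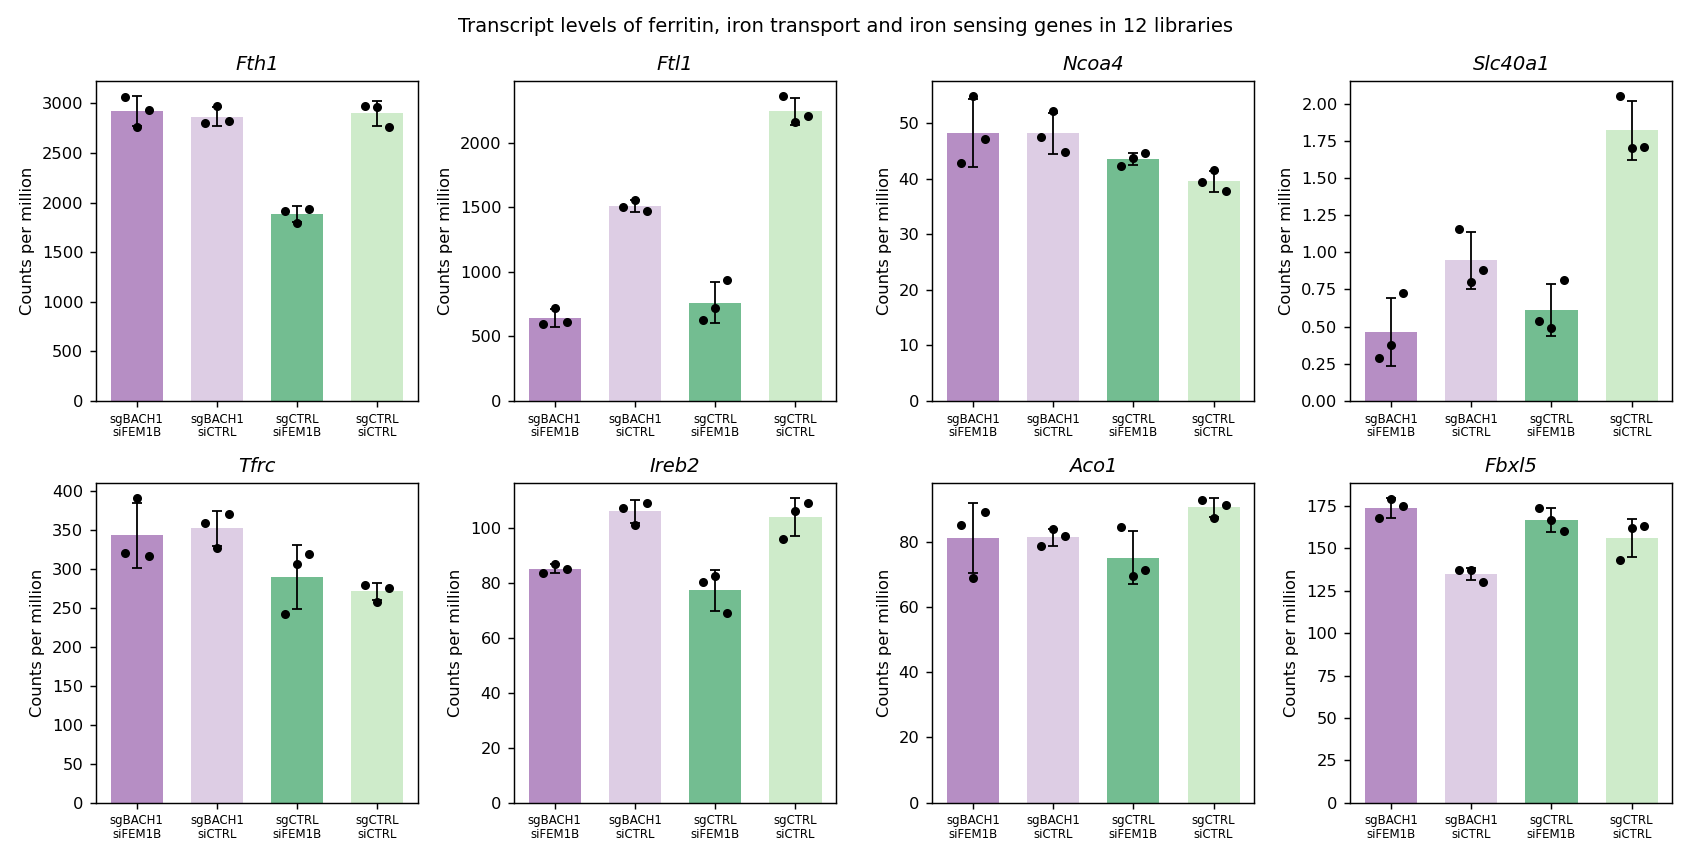
Level of each of the 8 genes in CPM by group; bars are means, error bars are SD (n = 3) and points are libraries. Fth1 stands low only in sgCTRL_siFEM1B cells (1881 ± 80.2 CPM), whereas Ftl1 and Slc40a1 are highest in sgCTRL_siCTRL cells and lower in each of the other groups.

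Fth1, the ferritin heavy chain with ferroxidase activity (chr19:9980600-9985111), fell with FEM1B siRNA in control cells and was not called different in knockout cells. In knockout cells it was at 3063, 2762 and 2938 CPM with FEM1B siRNA, against 2806, 2973 and 2818 CPM with control siRNA. In control cells it was at 1912, 1789 and 1940 CPM with FEM1B siRNA, against 2974, 2965 and 2758 CPM with control siRNA. The 3 control libraries with FEM1B siRNA lie below all other 9, which overlap with each other. The log2 fold change with FEM1B siRNA was 0.03 ± 0.05 in knockout cells (SE; adjusted p = 0.71) and −0.62 ± 0.05 in control cells (adjusted p = 2.15e-08). Adjusted p-values here and below are from edgeR's quasi-likelihood test, two-sided, with Benjamini-Hochberg adjustment over 13281 genes, and a gene is called under 0.05. The difference between these siRNA effects, tested as an interaction, was 0.65 ± 0.08 (adjusted p = 5.97e-05), the 8th smallest p of 13281, and it lay between 0.62 and 0.69 without any 1 library. In bulk RNA, fewer cells with a transcript and less of it per cell cannot be told apart.

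Between the lines, Fth1 was higher in knockout cells with FEM1B siRNA, by 0.64 ± 0.05 (adjusted p = 5.8e-09), and its log2 fold change with control siRNA was −0.02 ± 0.05 (adjusted p = 0.816). These values depend on the chromosome 19 shift. With the median of each chromosome removed, Fth1 was higher in knockout cells with FEM1B siRNA, at 0.19 ± 0.05 (adjusted p = 0.0051), and lower in knockout cells with control siRNA, at −0.46 ± 0.05 (adjusted p = 6.05e-07). The siRNA effects within a line and the interaction are not comparisons between lines. They kept their calls under this setting.

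Ftl1, the light chain (chr7:45457944-45459886), fell with FEM1B siRNA in both lines and was lower in knockout cells with either siRNA. In knockout cells it was at 597, 722 and 611 CPM with FEM1B siRNA, against 1504, 1559 and 1469 CPM with control siRNA. In control cells it was at 628, 717 and 938 CPM with FEM1B siRNA, against 2362, 2164 and 2206 CPM with control siRNA. With control siRNA the lines do not overlap, and with FEM1B siRNA they do, with 1 control library at 938 CPM standing highest. The log2 fold change with FEM1B siRNA was −1.23 ± 0.10 in knockout cells (adjusted p = 1.84e-08) and −1.56 ± 0.10 in control cells (adjusted p = 5.43e-10). Of all genes tested, 0.557% had a lower log2 fold change in knockout cells and 0.414% in control cells. The interaction was 0.33 ± 0.14 (adjusted p = 0.159), so a difference between these siRNA effects was not called, although it was called without a filter on low counts (adjusted p = 0.000572) and without control-line FEM1B siRNA replicate 3 (0.48, adjusted p = 0.00502). Without single libraries it lay between 0.21 and 0.48.

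With control siRNA, Ftl1 was lower in knockout cells, at −0.57 ± 0.10 on the log2 scale (adjusted p = 6.84e-05). With chromosome medians removed the value was −0.58 ± 0.10. With FEM1B siRNA the difference was −0.24 ± 0.10 (adjusted p = 0.0454). That call was lost in 8 of 12 fits without 1 library (knockout FEM1B siRNA replicates 1 and 3, each knockout control siRNA replicate, control-line FEM1B siRNA replicate 3, and control-line control siRNA replicates 2 and 3), and without control-line FEM1B siRNA replicate 3 the value was −0.08 (adjusted p = 0.369). It was also lost in a fit to the 6 libraries compared (adjusted p = 0.101), with DESeq2 (adjusted p = 0.132) and with the replicate number as a block (adjusted p = 0.0564).

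The ferritin transcripts are not unique in the genome. Of 50-base windows of the Ftl1 transcript, 78.9% also occur in transcripts of other genes (15 genes, most often the pseudogene Ftl1-ps1), against 6.59% for Fth1. The table holds rows for Mir692-2 and Mir692-3, microRNA loci that lie inside the ferritin light chain pseudogenes Ftl2-ps (chr4:125504080-125505018) and Ftl1-ps1 (chr13:74406397-74407325). Their counts were equal in 12 of 12 libraries and amounted to 6.33 to 8.84 counts per 100 Ftl1 counts. The mature miR-692 sequence in RefSeq (GRCm38.p6) occurs without a mismatch in the coding region of the Ftl1 transcript, at base 771, and is printed with its seed in capitals.
mmu-miR-692: aUCUCUUUgagcgccucacuc
Mir692-2 averaged 49.5 CPM in knockout cells with FEM1B siRNA and 116 CPM with control siRNA, and 61.1 CPM in control cells with FEM1B siRNA and 182 CPM with control siRNA. These counts come from poly(A) libraries and are no measure of the mature microRNA. How reads matching several places were counted is not given in the sources used here, so levels of Ftl1 are uncertain. Adding the Mir692 counts to Ftl1, an alternative chosen after seeing the data, changed none of its 5 calls. With at most 8.84 counts per 100 Ftl1 counts, the addition could hardly change a call, and it does not settle this uncertainty.

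The ratio of light to heavy chain counts within a library does not depend on library scaling. There were 0.195 to 0.262 Ftl1 counts per Fth1 count in knockout cells with FEM1B siRNA, against 0.521 to 0.536 with control siRNA. In control cells there were 0.328 to 0.483 with FEM1B siRNA, against 0.73 to 0.8 with control siRNA. None of the 4 groups overlap in this ratio. With FEM1B siRNA minus control siRNA, the log2 ratio differed by −1.26 ± 0.13 in knockout cells (SE) and −0.96 ± 0.17 in control cells. Knockout minus control cells, it differed by −0.86 ± 0.21 with FEM1B siRNA and −0.55 ± 0.04 with control siRNA. Each of these 4 differences had p = 0.1 in a two-sided exact permutation test, the smallest p that 3 against 3 libraries allow. The shift of chromosome 19 between the lines enters the differences between lines but not those between siRNAs.

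**Figure D2:**
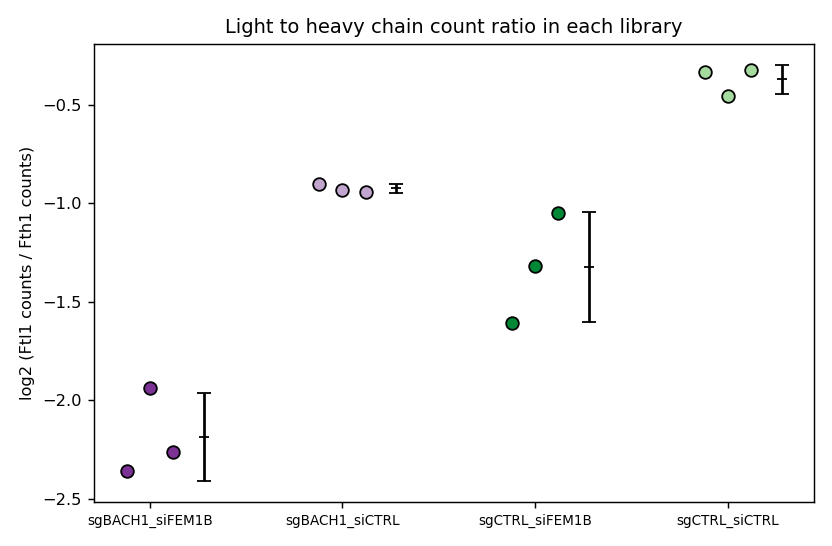
Log2 ratio of Ftl1 to Fth1 counts in each library (points), with mean and SD of each group (bars; n = 3). The groups run without overlap, from the lowest in sgBACH1_siFEM1B cells (−2.19 ± 0.22) to the highest in sgCTRL_siCTRL cells (−0.37 ± 0.07).

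Slc40a1, which encodes the iron exporter ferroportin (chr1:45908070-45926532), was barely detected and, like Ftl1, fell with FEM1B siRNA in both lines. It had 6, 7 and 12 counts in knockout cells with FEM1B siRNA, against 22, 16 and 19 with control siRNA. In control cells it had 12, 10 and 15 counts with FEM1B siRNA, against 45, 36 and 34 with control siRNA. The siRNA groups do not overlap within either line. In CPM, its group means were 0.464 ± 0.229 in knockout cells with FEM1B siRNA and 0.945 ± 0.189 with control siRNA, and 0.612 ± 0.176 in control cells with FEM1B siRNA and 1.82 ± 0.20 with control siRNA (SD, n = 3). With FEM1B siRNA the log2 fold change was −1.05 ± 0.39 in knockout cells (adjusted p = 0.0369) and −1.58 ± 0.33 in control cells (adjusted p = 0.00062). The change in control cells held its call without each library in turn.

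The change of Slc40a1 in knockout cells lost its call without knockout FEM1B siRNA replicate 1 or 2 or knockout control siRNA replicate 1 or 3 (adjusted p = 0.0623 to 0.164), and in the fit to the 6 libraries compared (0.0545), with DESeq2 (0.0635) and without a filter on low counts (0.0567). Slc40a1 was also lower in knockout than in control cells with control siRNA, with a log2 fold change of −0.95 ± 0.31 (adjusted p = 0.0146). That call was lost without knockout control siRNA replicate 2 or 3 (adjusted p = 0.0583 and 0.0517) or control-line control siRNA replicate 1 (0.0581). With FEM1B siRNA the log2 fold change between lines was −0.42 ± 0.42 (adjusted p = 0.418). That value lay between −0.85 and −0.15 without single libraries, and was called in none of those fits.

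Tfrc encodes transferrin receptor 1, which takes up transferrin-bound iron (chr16:32608896-32632794), and was higher in knockout cells with either siRNA. In knockout cells it was at 321, 391 and 317 CPM with FEM1B siRNA, against 359, 327 and 371 CPM with control siRNA. Control cells had 242, 306 and 319 CPM with FEM1B siRNA, against 279, 258 and 275 CPM with control siRNA. With control siRNA the lines do not overlap, whereas with FEM1B siRNA they do. The difference was 0.25 ± 0.09 with FEM1B siRNA (adjusted p = 0.0214) and 0.38 ± 0.09 with control siRNA (adjusted p = 0.00117). Leaving out knockout FEM1B siRNA replicate 2 (0.14, adjusted p = 0.148) or control-line FEM1B siRNA replicate 1 (0.13, adjusted p = 0.154) ended the call with FEM1B siRNA. FEM1B siRNA itself gave log2 fold changes of −0.04 ± 0.09 in knockout cells (adjusted p = 0.756) and 0.09 ± 0.09 in control cells (adjusted p = 0.405). The value in control cells lay between 0.03 and 0.21 without single libraries, lowest without FEM1B siRNA replicate 3 and highest, and called, without replicate 1 (adjusted p = 0.0332). Chromosome 16 had a median near 0, and both calls between lines held with chromosome medians removed.

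Ncoa4, the receptor that carries ferritin to lysosomes for breakdown (chr14:32159879-32179855), varied little. Knockout cells had 42.8, 54.9 and 47.2 CPM with FEM1B siRNA, against 47.6, 52.2 and 44.9 CPM with control siRNA. Levels in control cells were 42.4, 43.7 and 44.6 CPM with FEM1B siRNA, against 39.4, 41.6 and 37.9 CPM with control siRNA. The 3 control libraries with control siRNA lie below all others. Ncoa4 was higher in knockout cells with control siRNA by 0.28 ± 0.08 (adjusted p = 0.00762), but the median of chromosome 14 was 0.24, and with chromosome medians removed the value was 0.04 ± 0.08 (adjusted p = 0.722). The call was also lost without knockout control siRNA replicate 2 (adjusted p = 0.0518). With FEM1B siRNA the difference between lines was 0.15 ± 0.08 (adjusted p = 0.139). Without single libraries it lay between 0.04 and 0.23, lowest without knockout FEM1B siRNA replicate 2 and highest, and called, without replicate 1 (adjusted p = 0.0303). With chromosome medians removed it was −0.10 ± 0.08 (adjusted p = 0.346). Of its 50-base windows 52.5% also occur in transcripts of the gene model Gm6768, so its level is uncertain too. No 50-base window of Slc40a1, Tfrc, Ireb2, Aco1 or Fbxl5 was shared with another gene.

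Of the iron regulatory proteins, Ireb2, which encodes IRP2 (chr9:54862658-54912534), fell with FEM1B siRNA in both lines. Levels in knockout cells were 83.4, 86.9 and 85.1 CPM with FEM1B siRNA, against 107, 101 and 109 CPM with control siRNA. The control line gave 80.3, 82.5 and 68.9 CPM with FEM1B siRNA, against 96.0, 106 and 109 CPM with control siRNA. The siRNA groups do not overlap in either line. The log2 fold change was −0.32 ± 0.07 in knockout cells (adjusted p = 0.000872) and −0.42 ± 0.07 in control cells (adjusted p = 4.28e-05), and both calls held under every alternative tried. The interaction was 0.11 ± 0.10 (adjusted p = 0.537).

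Between the lines, the log2 fold change of Ireb2 was 0.14 ± 0.07 with FEM1B siRNA (adjusted p = 0.0914) and 0.03 ± 0.07 with control siRNA (adjusted p = 0.713). Against the median of chromosome 9 it was −0.15 ± 0.07 with FEM1B siRNA (adjusted p = 0.0718) and −0.24 ± 0.07 with control siRNA (adjusted p = 0.00611). The direction between lines thus turned with this setting. The value with FEM1B siRNA lay between 0.05 and 0.19 without single libraries, lowest without control-line FEM1B siRNA replicate 3 and highest, and called, without replicate 2 (adjusted p = 0.0462).

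Aco1 encodes IRP1, which is cytosolic aconitase when it holds an iron-sulfur cluster and binds IREs without it (chr4:40143265-40199009). The knockout line gave 85.2, 68.8 and 89.1 CPM with FEM1B siRNA, against 78.7, 83.9 and 81.6 CPM with control siRNA. Control cells showed 84.4, 69.4 and 71.4 CPM with FEM1B siRNA, against 92.9, 87.3 and 91.3 CPM with control siRNA. Aco1 fell with FEM1B siRNA in control cells, where the groups do not overlap, and not in knockout cells, where they do. The log2 fold change was −0.01 ± 0.08 in knockout cells (adjusted p = 0.953) and −0.27 ± 0.08 in control cells (adjusted p = 0.0122). The interaction was 0.26 ± 0.12 (adjusted p = 0.186), so a difference between these effects was not called.

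The call for Aco1 in control cells was lost without FEM1B siRNA replicate 2 (adjusted p = 0.0717) or 3 (adjusted p = 0.0616). Between lines its log2 fold change was 0.11 ± 0.08 with FEM1B siRNA (adjusted p = 0.287) and −0.15 ± 0.08 with control siRNA (adjusted p = 0.132). With FEM1B siRNA the value lay between 0.04 and 0.21 without single libraries, lowest without knockout replicate 3 and highest, and called, without knockout replicate 2 (adjusted p = 0.0199). The interaction lay between 0.19 and 0.37, and was called without that same library (adjusted p = 0.0178). In a fit to the 6 libraries compared, the difference with control siRNA was called (adjusted p = 0.0466).

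Fbxl5, the iron sensor of the SCF ligase (chr5:43744618-43782149), was the only one of the 8 that rose with FEM1B siRNA, which it did in knockout cells. Knockout cells showed 168, 179 and 175 CPM with FEM1B siRNA, against 137, 137 and 130 CPM with control siRNA. Among control cells it was at 174, 167 and 160 CPM with FEM1B siRNA, against 143, 162 and 163 CPM with control siRNA. The siRNA groups are apart in knockout cells and overlap in control cells. This was a log2 fold change of 0.37 ± 0.06 in knockout cells (adjusted p = 3.94e-05) and 0.10 ± 0.06 in control cells (adjusted p = 0.173). The interaction was 0.27 ± 0.08 (adjusted p = 0.0522), just outside the threshold. Without single libraries it lay between 0.21 and 0.33. It was called without a filter on low counts (adjusted p = 0.0305), without control-line FEM1B siRNA replicate 1 (adjusted p = 0.0345) and without control-line control siRNA replicate 1 (adjusted p = 0.0219). Between lines, Fbxl5 differed by 0.06 ± 0.06 with FEM1B siRNA (adjusted p = 0.402), and with control siRNA it was lower in knockout cells, at −0.21 ± 0.06 (adjusted p = 0.00452).

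Counts over the 8 genes are read against those over all genes tested. With FEM1B siRNA in knockout cells, 1 of 8 rose (Fbxl5) and 3 fell (Ftl1, Slc40a1 and Ireb2), where 41.7% of genes were called (21.9% up and 19.8% down). In control cells 0 rose and 5 fell (Fth1, Ftl1, Slc40a1, Ireb2 and Aco1), where 45.0% were called (22.1% up and 22.9% down). Between lines with FEM1B siRNA, 2 of 8 were higher and 1 lower, where 54.6% of genes were called (28.2% up and 26.4% down). Between lines with control siRNA, 2 were higher and 3 lower, where 50.5% were called (24.2% up and 26.3% down). No test was made of these counts against the shares, and the 8 genes were chosen with earlier results of these data known. The interaction was called for 1 of 8, in the positive direction, where 6.08% of genes were called, 3.48% positive and 2.6% negative. The median log2 fold change of the 8 with FEM1B siRNA was −0.02 in knockout cells and −0.35 in control cells, and over all genes it was 0.02 in knockout cells and 0.00 in control cells. Libraries did not overlap for 4 of 8 in knockout cells (51.5% of genes) and for 6 of 8 in control cells (52.1% of genes) between siRNAs. Between lines this held for 2 of 8 with FEM1B siRNA (57.0% of genes) and for 6 of 8 with control siRNA (60.3% of genes). Comparisons within a line or within an siRNA share a group with each other, so their values are not independent.

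**Figure D3:**
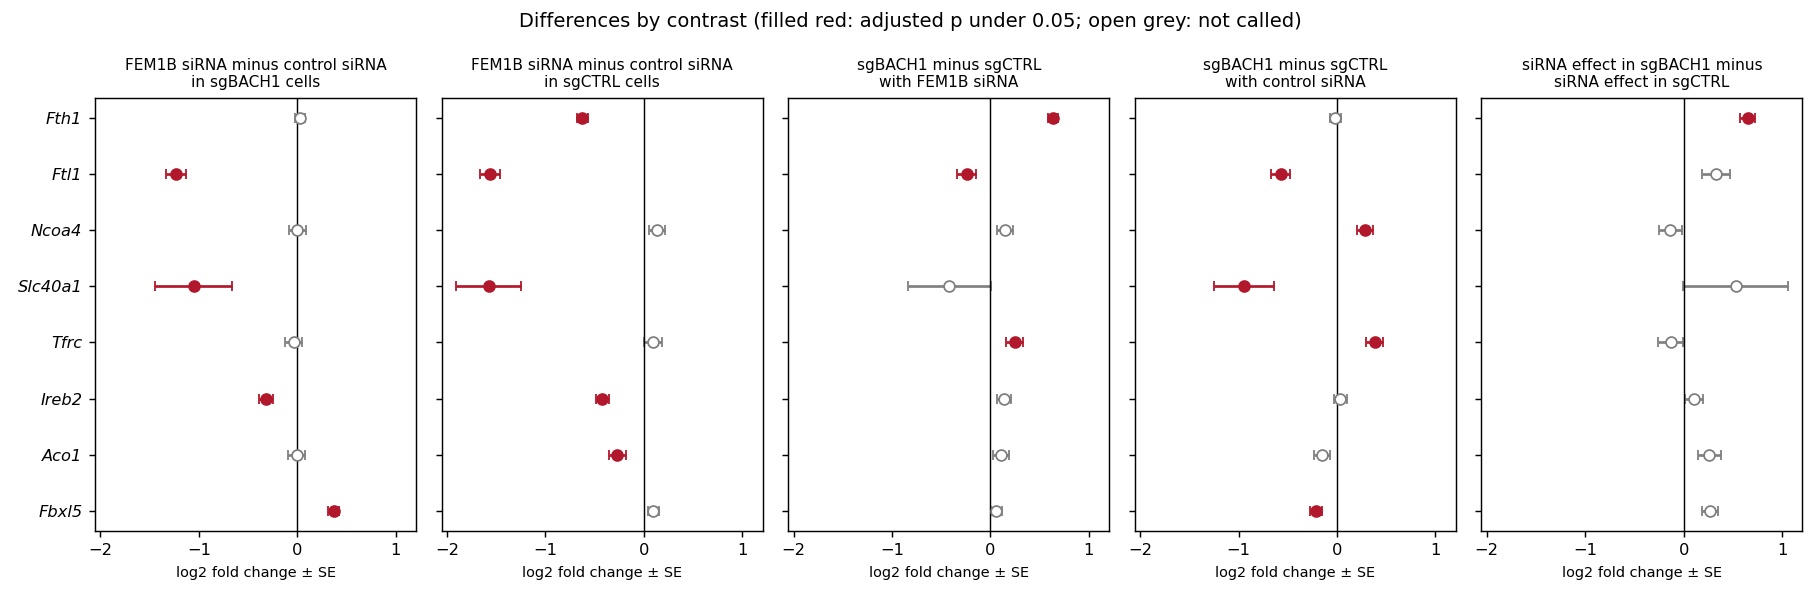
Log2 fold change ± SE of each gene in the 5 comparisons, with called genes (adjusted p under 0.05) filled red. For FEM1B siRNA, Fth1 is open in sgBACH1 cells (0.03) and filled in sgCTRL cells (−0.62), and it is the only gene filled in the panel of the difference between siRNA effects (0.65).

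**Figure D4:**
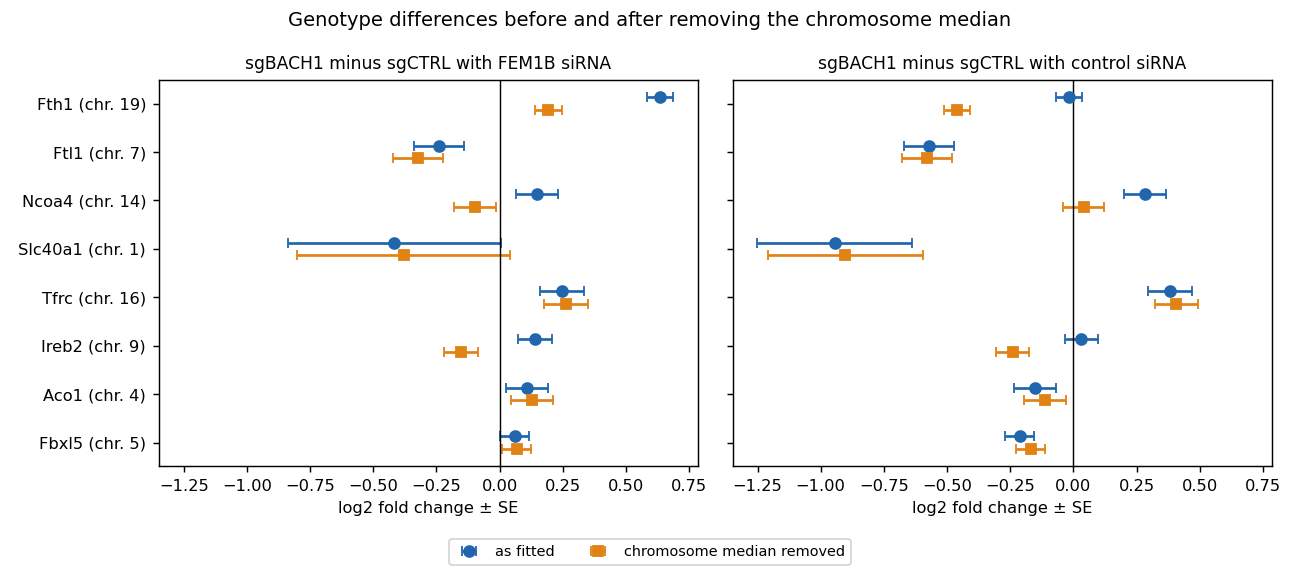
Log2 fold change ± SE of knockout over control cells, as fitted (circles) and with the median of the gene's chromosome removed (squares), for FEM1B siRNA and control siRNA. Fth1 on chromosome 19, Ncoa4 on chromosome 14 and Ireb2 on chromosome 9 move to the left by 0.24 to 0.44, and the other 5 genes stay near their first value.

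By IRE position, the 3 transcripts with a 5′ hairpin (Fth1, Ftl1 and Slc40a1) were the ones with a span between group means of at least 0.5 on the log2 scale, and all 3 fell with FEM1B siRNA in control cells. Tfrc, with 3′ hairpins, spanned 0.38. This is a description of 4 transcripts, and no test was made of it. The genes whose levels ran most like these over the 12 libraries were sought among 9541 genes by the root mean square difference of centred log2 CPM. Bphl (chromosome 13) was nearest to Fth1, at 0.073, with 16.5 CPM in knockout cells with FEM1B siRNA and 15.9 CPM with control siRNA, and 10.9 CPM in control cells with FEM1B siRNA and 15.2 CPM with control siRNA. Rsad1 (chromosome 11) followed at 0.089. Nearest to Ftl1 were the Mir692-2 and Mir692-3 rows, at 0.131, which share its sequence. Nearest to Slc40a1 were Ftl1, at 0.322, and Ak5, at 0.347.

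Promoters from RefSeq, from 250 bases before to 50 bases after the start, were searched on both strands for TGACNNNGC, the core of the motif that BACH1 and NRF2 recognize with small MAF proteins. Of 32851 promoters 12.4% held it. Of 10 promoters of 6 of the 8 genes, 1 held it, which was 1 of the promoters of Ncoa4. Slc40a1 and Fbxl5 had no promoter in this set. Sequence outside these windows was not searched, so the lack of a match does not show that a gene has no such motif. The letters are a description and not a site.

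Genes that act beside these 8 were read from 5 lists of 47 genes in all, of which 35 passed the filter. Of these 35, FEM1B siRNA raised 9 and lowered 6 in knockout cells, and raised 10 and lowered 9 in control cells, where 41.7% of all genes were called in knockout cells and 45.0% in control cells. Between lines, 13 were higher and 10 lower with FEM1B siRNA (54.6% of all genes called), and 7 were higher and 9 lower with control siRNA (50.5% called). The counts of each list are read against these same shares, and nothing particular to a list is drawn from them.

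Iron import had 13 tested genes, of which 2 rose and 2 fell with FEM1B siRNA in knockout cells (41.7% of all genes called) and 3 rose and 4 fell in control cells (45.0% called). Steap2, an endosomal ferric reductase, was at 202, 175 and 198 CPM in knockout cells with FEM1B siRNA, against 280, 283 and 298 CPM with control siRNA. In the control line it was at 141, 137 and 102 CPM with FEM1B siRNA, against 234, 265 and 266 CPM with control siRNA. It fell by 0.58 ± 0.09 on the log2 scale in knockout cells (adjusted p = 2.92e-05) and by 1.01 ± 0.09 in control cells (adjusted p = 3.64e-08). Its relative Steap1 had a log2 fold change of −0.15 ± 0.07 in knockout cells (adjusted p = 0.103) and fell by 0.58 ± 0.07 in control cells (adjusted p = 2.5e-06). Snx3, which recycles the transferrin receptor to the surface, rose by 0.50 ± 0.06 in knockout cells (adjusted p = 1.06e-06) and 0.38 ± 0.06 in control cells (adjusted p = 1.88e-05).

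Between lines with FEM1B siRNA, 7 of the 13 import genes were higher in knockout cells and 3 lower (54.6% of all genes called), and with control siRNA 4 were higher and 3 lower (50.5% called). Slc39a8, a zinc transporter that also carries iron, was at 11.4, 11.2 and 11.2 CPM in knockout cells with FEM1B siRNA, against 4.42, 4.93 and 4.83 CPM in control cells. With control siRNA it was at 10.2, 11.6 and 11.5 CPM in knockout cells, against 4.59, 3.96 and 4.21 CPM in control cells. The log2 fold change was 1.26 ± 0.12 with FEM1B siRNA (adjusted p = 4.68e-08) and 1.38 ± 0.12 with control siRNA (adjusted p = 1.35e-08). Slc11a2, the divalent metal transporter DMT1, was lower in knockout cells, with a log2 fold change of −0.74 ± 0.08 with FEM1B siRNA (adjusted p = 1.42e-07) and −0.47 ± 0.08 with control siRNA (adjusted p = 4.15e-05). Trf, transferrin itself, was lower too, with a log2 fold change of −1.28 ± 0.20 with FEM1B siRNA (adjusted p = 1.62e-05) and −1.37 ± 0.18 with control siRNA (adjusted p = 2.68e-06).

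Of 9 genes of iron export and the hepcidin axis 3 were tested, and 2 of them were lower in knockout cells with either siRNA (26.4% of all genes called lower with FEM1B siRNA and 26.3% with control siRNA). Cp, the ferroxidase ceruloplasmin that works beside ferroportin, was at 2.33, 0.702 and 1.45 CPM in knockout cells with FEM1B siRNA, against 9.95, 13.8 and 10.0 CPM in control cells. With control siRNA it was at 1.37, 0.898 and 1.16 CPM in knockout cells, against 9.19, 9.98 and 12.0 CPM in control cells. This was a log2 fold change of −2.88 ± 0.25 with FEM1B siRNA (adjusted p = 8.26e-09) and −3.18 ± 0.26 with control siRNA (adjusted p = 3.3e-09).

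Of 6 tested genes of ferritin loading and turnover, 2 rose and 1 fell with FEM1B siRNA in knockout cells (41.7% of all genes called), and 1 rose and 1 fell in control cells (45.0% called). Atg9a, an autophagy membrane protein, rose by 0.26 ± 0.06 in knockout cells (adjusted p = 0.00124) and 0.27 ± 0.06 in control cells (adjusted p = 0.000639). Pcbp2, an iron chaperone, was lower in knockout cells with FEM1B siRNA, at −0.20 ± 0.05 (adjusted p = 0.00157), and with control siRNA, at −0.38 ± 0.05 (adjusted p = 1.42e-06). With chromosome medians removed the value was −0.08 with FEM1B siRNA, no longer called (adjusted p = 0.164), and −0.22 with control siRNA (adjusted p = 0.000662).

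All 8 genes listed for the FBXL5 ligase and for iron-sulfur cluster delivery to cytosolic proteins were tested. With FEM1B siRNA 4 rose and 1 fell in knockout cells (41.7% of all genes called) and 3 rose and 1 fell in control cells (45.0% called). The one that fell was Cul1, the scaffold of SCF ligases, by 0.34 ± 0.05 in knockout cells (adjusted p = 2.9e-05) and by 0.40 ± 0.05 in control cells (adjusted p = 3.89e-06). Fam96b, a cluster assembly factor now named Ciao2b, rose by 0.35 ± 0.07 in knockout cells (adjusted p = 0.000487) and 0.36 ± 0.07 in control cells (adjusted p = 0.000291). Mms19, the cluster delivery scaffold, was higher in knockout cells by 0.67 ± 0.05 with FEM1B siRNA (adjusted p = 8.29e-10) and by 0.56 ± 0.05 with control siRNA (adjusted p = 1.14e-08). With chromosome medians removed the value was 0.23 with FEM1B siRNA (adjusted p = 0.000681) and 0.12 with control siRNA, no longer called (adjusted p = 0.0633).

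Of 6 other tested transcripts described with an IRE, 1 rose and 2 fell with FEM1B siRNA in knockout cells (41.7% of all genes called), and 2 rose and 2 fell in control cells (45.0% called). Cdc14a, a phosphatase, rose by 0.42 ± 0.08 in knockout cells (adjusted p = 0.000242) and 0.46 ± 0.08 in control cells (adjusted p = 6.5e-05), while the kinase gene Cdc42bpa fell by 0.34 ± 0.07 in knockout cells (adjusted p = 0.000703) and by 0.31 ± 0.07 in control cells (adjusted p = 0.00147). With FEM1B siRNA these transcripts thus did not move one way. Between lines with FEM1B siRNA, 0 were higher and 4 lower in knockout cells (26.4% of all genes called lower). With control siRNA the counts between lines were also 0 higher and 4 lower (26.3% of all genes called lower).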

How the data were processed

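Poly(A) RNA of 12 libraries was made with a stranded mRNA kit, per the labels' protocols. The authors deposited raw counts per gene symbol, with no normalization. The build mm10 and the tools featureCounts 1.6.4, Subread, DESeq2 1.26.0 and SAMtools 1.9 are named, per the submitters' processing notes. No source used here gives the annotation, the strand setting or the treatment of multiply matching reads.

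Counts were filtered with edgeR's filterByExpr (minimum count 10), which kept 13281 genes, and scaled with TMM factors. CPM is counts over the library total times that factor. Differences were tested with edgeR 4.0.16 (quasi-likelihood, R 4.3.3) in 1 model with a mean for each of the 4 groups and 8 residual degrees of freedom. The SE was taken from the fold change and the F statistic, as |log2 fold change|/√F. The test was tried on simulated counts. No libraries held identical counts (chi-square per degree of freedom 2.5 to 13.5 between replicates). Coordinates are from RefSeq GRCm38.p6 (genes) and GENCODE M21 (hairpins).

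The 8 genes, the lists and the rule for named genes were chosen with earlier results of these data known. The rule named all 8 genes, Bach1, Fem1b, copies of the ferritin genes, up to 2 called genes a direction in each list and comparison, and the 2 genes most like each widely varying member. Some genes that the rule names are left out of the text, chosen after their values were seen. Calls of some of these held without each library in turn. Between lines with control siRNA, these were Slc22a17 (log2 fold change 1.41 ± 0.17) and Tmprss6 (−6.72 ± 1.20, with 0 counts in the knockout libraries), among others. With FEM1B siRNA in control cells, Mfi2 was another (2.44 ± 0.51). Alternatives were DESeq2 1.42.0 (size factors in edgeR, and its Wald test), no filter, only the libraries compared, a replicate block, removal of chromosome medians, and leaving out each library.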

Additional observations from a re-analysis of the deposited data

Results flagged for a closer look

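By the test of the interaction, the effect of FEM1B siRNA differed between knockout and control cells for 1 of the 8 genes. It also did so for 2 of the 35 listed genes tested, where 6.08% of all genes were called. Nothing particular to the lists is drawn from that count. For Fth1 the siRNA effect was higher in knockout than in control cells by 0.65 on the log2 scale (adjusted p = 5.97e-05). It was also called without each library in turn.

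For the related genes Steap1 and Steap2 the same difference was 0.43 each (adjusted p = 0.0184 for Steap1 and 0.049 for Steap2). Steap1 lost its call in 6 of 12 fits without 1 library, with values between 0.35 and 0.52, and Steap2 in 9 of 12, with values between 0.26 and 0.51. Steap1 was at 72.4, 57.2 and 67.1 CPM in knockout cells with FEM1B siRNA, against 70.7, 75.0 and 72.7 CPM with control siRNA. In control cells it was at 54.8, 50.5 and 51.7 CPM with FEM1B siRNA, against 78.7, 75.4 and 81.1 CPM with control siRNA.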

How the results depend on the processing

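Over the 8 genes and 5 comparisons 717 values were recomputed under the alternatives, and 658 kept direction and call, 19 turned sign while called neither before nor after, 27 lost the call, 12 gained one and 1 turned direction while called. The last was Ireb2 between lines with control siRNA, at −0.24 (adjusted p = 0.00611) with chromosome medians removed. The most frequent loss was Ftl1 between lines with FEM1B siRNA. Without a filter on low counts the interaction was called for 3 of the 8 genes (reported 1) and 1393 genes in all (reported 807). Without single libraries these counts were 1 to 2 and 297 to 1859. Of the 8, the number called between lines with control siRNA (reported 5) was 3 to 5 without single libraries, the lowest without knockout control siRNA replicate 2, and 6 in the fit to the libraries compared and with chromosome medians removed. Listed genes called in the interaction numbered 1 with DESeq2 size factors, with the replicate block and with chromosome medians removed (reported 2), and 0 to 2 without single libraries.

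Libraries of the same replicate number did not deviate together: of 18 such pairs 0 had a correlation over 0.1 (range −0.115 to 0.079), and 12 of 36 best partners had the same number, so the numbers were not taken as pairs. With the replicate block the Ftl1 difference between lines with FEM1B siRNA lost its call (adjusted p = 0.0564) and no other of the 8 genes changed call. Summing ferritin copies named by symbol was not run, since those rows hold 0 counts. Depth limits Slc40a1, with 6 to 45 counts per library.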
